A study of Mus musculus with 55 samples.

Results

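The 8 genes described here are some of the NLRP genes of the mouse oocyte that lie outside the best-studied members of the family: Nlrp14, Nlrp9a, Nlrp9b, Nlrp9c, Nlrp4a, Nlrp4b, Nlrp4c and Nlrp4e. They were chosen by name, with earlier results of these data known, and all 8 were found among the 51734 genes of each oocyte count file. Their polyadenylated RNA was read in 52 single-oocyte libraries made with SMART-Seq HT, a full-length cDNA method in which an oocyte gives 1 library.

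The study compared fully grown oocytes (FGOs, the arrested germinal vesicle oocytes at the end of follicular growth) with amino acid changes that disable the ADD domain of DNMT3A, of DNMT3L or of both. These proteins together lay down DNA methylation in the growing oocyte. The ADD domain binds the tail of histone H3 where its lysine-4 (H3K4) is unmethylated. Wild-type oocytes were read as 18 FGOs and as 10 metaphase II (MII) oocytes, the ovulated stage. The mutants were 8 Dnmt3a ADD/ADD FGOs, 8 Dnmt3L ADD/ADD FGOs and 8 double mutants homozygous for both alleles. Dnmt3a ADD/ADD oocytes carried aspartate-to-alanine substitutions at nearby residues (an allele that the labels call ADA), with wild-type Dnmt3L. Dnmt3L ADD/ADD oocytes carried D124A on both Dnmt3L alleles, with wild-type Dnmt3a. The FGOs came from ovaries of females aged 10 to 12 weeks, punctured with needles and freed of cumulus cells by pipetting. The labels do not give the age of the MII donors. For fertilization, the study took MII oocytes from oviducts of females injected with inhibin antiserum and chorionic gonadotropin. Whether the sequenced MII oocytes were obtained this way is not stated for these libraries. If so, maturation and hormone treatment cannot be told apart in the MII comparison. The alleles were carried by every cell of the animal from conception, and the mutant proteins are still made, so the groups model a substituted domain and not the absence of the protein or a change restricted to the oocyte. The FGOs were pooled in medium before single cells were taken, so libraries cannot be tied to animals, and the p-values below measure the spread between these oocytes.

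NLRP proteins are cytoplasmic members of the NOD-like receptor family. A pyrin domain, a nucleotide-binding NACHT domain and a run of leucine-rich repeats follow each other along the chain, and in immune cells some of them, such as NLRP3, assemble the inflammasome that activates caspase-1. A rodent-expanded branch of the family is instead transcribed in the oocyte, where the RNA and protein are stored for the embryo. Nlrp5 (also called Mater) and Nlrp2 belong to the subcortical maternal complex, and Nlrp14 is a maternal-effect gene whose loss stops embryos of mutant mothers at early cleavage. The Nlrp9 genes are oocyte genes of which Nlrp9b is also known as an antiviral sensor in the gut, and the Nlrp4 genes are the mouse copies of human NLRP4, which dampens interferon signalling. A fully grown oocyte transcribes little, and during maturation to MII stored RNA is translated, deadenylated or degraded, so counts of polyadenylated RNA follow the stored pool.

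Library totals ran from 7832458 to 23739871 counts, and no member had fewer than 88 counts in any library. Levels are given as CPM, the counts of a gene per 1000000 counts of its library, with libraries scaled by the trimmed mean of M-values method, so a level is relative to the other RNAs of that oocyte. Fewer copies of an RNA and a larger pool of other RNAs cannot be told apart on this scale. By the study's read summary, the libraries fell into a class with under 80% and a class with at least 80% of reads mapped. Wild-type FGO replicates 1 to 8 and all 8 double mutant FGOs were in the lower class, wild-type FGO replicates 9 to 18 and all 8 Dnmt3L ADD/ADD FGOs in the upper class, and the Dnmt3a ADD/ADD FGOs (3 lower, 5 upper) and MII oocytes (3 lower, 7 upper) were mixed. The 9 oocyte markers (among them Zp1, Zp2, Zp3, Gdf9 and Bmp15) summed to 6384 to 9759 CPM in wild-type FGOs. The sums were 9063 to 10092 in the double mutant, 5744 to 7299 in Dnmt3a ADD/ADD and 6168 to 8148 CPM in Dnmt3L ADD/ADD FGOs, and 6292 to 6824 in MII. The 27 markers of granulosa, theca, stroma, blood and endothelium summed to 224 to 475 CPM in wild-type FGOs, to 198 to 218 in the double mutant, 221 to 396 in Dnmt3a ADD/ADD and 212 to 279 CPM in Dnmt3L ADD/ADD FGOs, and to 193 to 234 in MII. Nr5a2 (86.1 CPM in wild-type and 93.6 in double mutant FGOs) and Pecam1 (72.4 and 60.2 CPM) weighed most in these sums. By list, the mean sums in wild-type FGOs, double mutant FGOs and MII oocytes differed more for some cell types. They were 43.1, 3.98 and 4.08 CPM for theca and 6.94, 0.766 and 0.733 for stroma. For granulosa they were 168, 139 and 124 CPM, and for blood and endothelium 72.8, 60.3 and 80.2 CPM. The part of these markers in the results below was not tested.

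All 8 genes lie on chromosome 7 of the mm10 build. Nlrp9c (26322473 to 26403700, minus strand), Nlrp4a (26435113 to 26476142, plus strand) and Nlrp9a (26535023 to 26575615, plus strand) form a cluster with 31.41 kb between Nlrp9c and Nlrp4a and 58.88 kb between Nlrp4a and Nlrp9a. The other 5 stand apart on the plus strand: Nlrp4c at 6045161 to 6105150, Nlrp4b at 10687789 to 10730168, Nlrp9b at 19991465 to 20073306, Nlrp4e at 23301192 to 23362277 and Nlrp14 at 107166990 to 107198102. Only Nlrp9b overlaps an exon of another gene, the pseudogene Gm18877, which had almost no counts.

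The coding transcripts of the 2 subfamilies resemble each other closely, which bears on how reads can be assigned. Nlrp4c and Nlrp4e were identical at 93.2% of aligned bases, Nlrp9a and Nlrp9c at 88.2%, and Nlrp9a and Nlrp9b at 83.8%, while Nlrp14 matched each of the others at 59.8% to 61.5%. Of all windows of 100 bases along the coding transcript, Nlrp4e shared 11.5% exactly with other genes, mostly with the pseudogenes Gm16443 and Gm8486, which were both near 0 CPM. The shared part was 1.36% or less for the other members, with none for Nlrp4a, Nlrp4b and Nlrp14. At 53 bases, a read length the sources also give, it rose to 34.4% for Nlrp4e, 10.4% for Nlrp4c and 5.77% or less for the rest, so the Nlrp4e level carries more uncertainty than the others.

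Some members also share their start regions. The 250 bases before the RefSeq start (GRCm38.p6, the assembly behind mm10) are shown for the 4 members whose windows hold 2 or more CCAAT boxes, the short element bound by the NF-Y complex. Capitals mark CCAAT or, read on the other strand, ATTGG.

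Nlrp9a, chr7:26534773-26535022, plus strand: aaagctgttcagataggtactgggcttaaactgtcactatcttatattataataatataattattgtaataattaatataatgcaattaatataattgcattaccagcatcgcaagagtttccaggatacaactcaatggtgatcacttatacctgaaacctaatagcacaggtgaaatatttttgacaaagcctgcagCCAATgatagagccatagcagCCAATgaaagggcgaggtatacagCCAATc
Nlrp9c, chr7:26403701-26403950, minus strand: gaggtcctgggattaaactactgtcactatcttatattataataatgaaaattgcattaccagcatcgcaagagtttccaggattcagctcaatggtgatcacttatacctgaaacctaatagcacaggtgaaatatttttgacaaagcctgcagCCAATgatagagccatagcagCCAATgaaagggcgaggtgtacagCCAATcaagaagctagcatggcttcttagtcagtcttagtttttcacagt
Nlrp4b, chr7:10687543-10687792, plus strand: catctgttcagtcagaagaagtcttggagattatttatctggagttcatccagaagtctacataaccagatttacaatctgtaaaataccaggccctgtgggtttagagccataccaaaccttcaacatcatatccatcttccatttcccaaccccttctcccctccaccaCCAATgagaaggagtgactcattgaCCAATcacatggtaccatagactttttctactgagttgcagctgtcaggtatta
Nlrp4c, chr7:6044911-6045160, plus strand: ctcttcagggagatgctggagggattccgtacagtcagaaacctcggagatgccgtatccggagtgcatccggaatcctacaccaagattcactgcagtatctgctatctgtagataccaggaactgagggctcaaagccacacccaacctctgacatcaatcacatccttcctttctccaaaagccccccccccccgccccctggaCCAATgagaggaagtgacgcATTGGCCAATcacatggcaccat

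Nlrp9a and Nlrp9c were 96.4% identical over 253 aligned bases of their 300-base windows (250 bases before to 50 after the start), although they point in opposite directions on either side of Nlrp4a. Nlrp4a, Nlrp4b and Nlrp4c matched each other at 78.1% to 80.4%, with the closest starts taken where a gene has more than 1. Nlrp9b and Nlrp4e matched the members of their own subfamily at only 56.6% to 62.8%, values that pairs across the subfamilies also had (53.2% to 64.5%). Nlrp9a and Nlrp9c each carried 3 CCAAT boxes with the same spacing. Their first bases were 51, 30 and 6 bases before the Nlrp9a start and 95, 74 and 50 before that of Nlrp9c. Nlrp4b had boxes at 79 and 54 bases before its start, and Nlrp4c had 3 matches at 43, 23 and 18, of which the last 2 abut as ATTGG followed by CCAAT. Over all 27025 mouse promoters of the same length, 37.9% held CCAAT on either strand at least once, 12.2% at least 2 times and 3.56% at least 3 times. The second Nlrp4a start and Nlrp4e held 1 match each, the first Nlrp4a start and Nlrp9b none in this window. The RefSeq start of Nlrp9b lies inside the gene span of the count files. Nlrp14 was not among the promoter entries.

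Per kilobase of exon, the unit in which different genes can be compared, Nlrp14 was the most abundant of the 8 in wild-type FGOs at 643 ± 108 CPM per kb (SD, n = 18). It ranked 13th of the 38217 genes with a count. Nlrp9b followed at 169 ± 20.5, Nlrp4a at 156 ± 12.0, Nlrp4b at 131 ± 17.2 and Nlrp9a at 117 ± 15.6 CPM per kb. These 4 neighbours could not be separated step by step, since the SD ranges of each met those of the next. Nlrp9c at 59.3 ± 9.77, Nlrp4e at 35.3 ± 10.1 and Nlrp4c at 12.1 ± 3.64 CPM per kb lay below them without such contact, and Nlrp4c ranked 4359th. The place of Nlrp9c depended on the length used. With the coding transcript (3216 bases) in place of all annotated exons (5935 bases) it stood at 110 CPM per kb, within the SD of Nlrp9a at 123 ± 16.3. Together the 8 genes took 0.527% ± 0.0802 of all counts in wild-type FGOs, of which Nlrp14 alone took 43.8%.

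**Figure D1:**
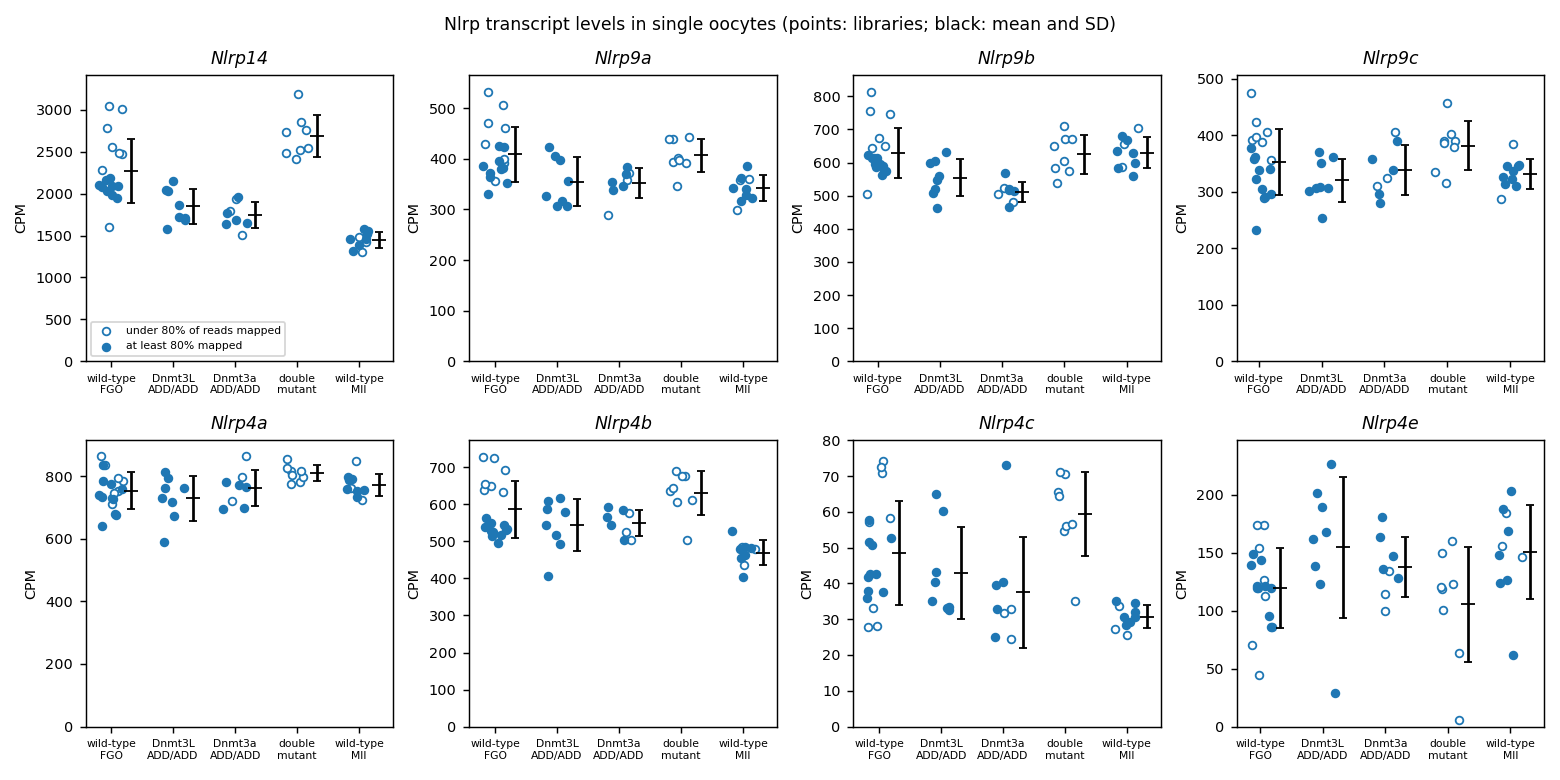
Level of each of the 8 genes in every oocyte, in CPM (vertical axes, 1 panel a gene, linear from 0), for the 4 genotypes of FGO and for wild-type oocytes at MII. Open circles are libraries with under 80% of reads mapped, filled circles the rest, and black marks the mean ± SD; the 10 MII oocytes sit between 1303 and 1579 CPM for Nlrp14, below all 18 wild-type FGOs, and 1 double mutant FGO stands near 0 for Nlrp4e.

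Within wild-type FGOs the 8 genes did not vary alike. Nlrp14 had a lowest level of 1596, a median of 2133 and a highest of 3044 CPM. Nlrp4a ran only from 643 over 750 to 863 CPM. Nlrp4e ran from 44.1 over 121 to 174 CPM, so the highest oocyte held 3.951 times the level of the lowest. As coefficients of variation (SD divided by mean) these were 16.8% for Nlrp14, 7.69% for Nlrp4a and 28.7% for Nlrp4e. The others stood at 30.1% for Nlrp4c, 16.5% for Nlrp9c, 13.3% for Nlrp9a, 13.2% for Nlrp4b and 12.1% for Nlrp9b. Over the 2518 genes of at least 100 CPM the median was 11.3%, with 5% of genes under 6.17% and 5% over 21.5%, so only Nlrp4c (itself below 100 CPM) and Nlrp4e lay outside the usual range.

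Nlrp4c and Nlrp4e were the most uneven members from oocyte to oocyte in each of the 5 groups. Nlrp4c came first in wild-type and Dnmt3a ADD/ADD FGOs (41.3% against 18.8% for Nlrp4e in the latter) and Nlrp4e, the member with the most shared sequence, in the other 3. The Nlrp4e coefficient of variation exceeded that of 97.1% to 99.8% of the background genes in each of the 5 groups. Single oocytes added to this spread. Double mutant replicate 4 had 5.84 CPM of Nlrp4e from 88 counts, while the other 7 double mutant FGOs lay between 63.9 and 160 CPM. Dnmt3L ADD/ADD replicate 2 had 29.2 CPM, with the other 7 between 124 and 227 CPM. These oocytes differed in the other members. Dnmt3L ADD/ADD replicate 2 was the lowest of its group in 6 of the 8 genes, Nlrp14 (1584 CPM) included. Double mutant replicate 4 had the highest Nlrp14 level of all 52 libraries (3190 CPM) and the lowest Nlrp4b of its group (503 CPM). Without the farthest library the Nlrp4e coefficient of variation in the double mutant fell from 47.3% to 26.6%. It was then 23.8% in wild-type, 20.8% in Dnmt3L ADD/ADD and 15.9% in Dnmt3a ADD/ADD FGOs, and 17.2% in MII. With every library kept, 5% of background genes lay over 17.6% in the double mutant and over 21.5%, 15.6%, 16.1% and 12.8% in those groups. Only the Dnmt3a ADD/ADD value lay below its limit.

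**Figure D2:**
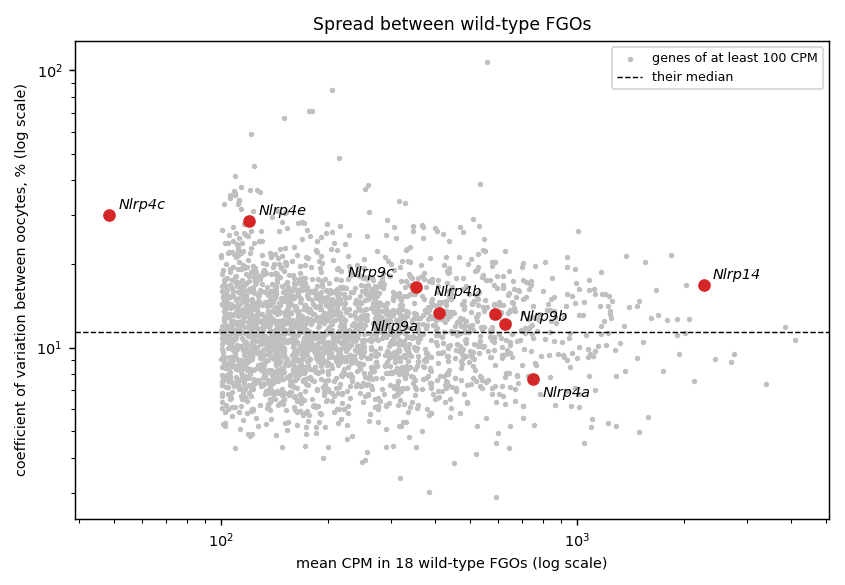
Coefficient of variation of CPM between the 18 wild-type FGOs (vertical axis, percent, log scale) against their mean CPM (horizontal axis, log scale). The 8 genes are named, all genes of at least 100 CPM are in grey and their median is dashed. Nlrp4e (28.7%) lies above 98.5% of the grey genes, while Nlrp4a (7.69%) lies below the median of 11.3%.

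The spread of the members in wild-type FGOs differed between both sets of replicates. Within wild-type replicates 9 to 18 the coefficient of variation was 3.63% for Nlrp14, 3.37% for Nlrp9b and 3.66% for Nlrp4b, under the background median of 6.01%, whereas within replicates 1 to 8 Nlrp14 stood at 18.3% and Nlrp9b at 14.3% against 12.6%. Both values in replicates 1 to 8 turned on replicate 8, the lowest oocyte (1596 CPM of Nlrp14). Without it they were 10.9% for Nlrp14 and 10.4% for Nlrp9b. The background of 12.6% keeps that oocyte, and none was computed without it. Nlrp4e stood at 41.2% in replicates 1 to 8 and 16.2% in 9 to 18, and Nlrp4c at 38.2% and 16.7%. In MII oocytes Nlrp4c, so uneven in FGOs, varied by 10.2% and ran only from 25.6 over 30.6 to 35.0 CPM.

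Oocytes with more Nlrp14 than their group also held more Nlrp9b. Over the 42 FGOs, after each group's mean was taken off, the Pearson correlation of log2 CPM was 0.87 between Nlrp14 and Nlrp9b, and 0.841 with both sets of wild-type replicates centred apart. Nlrp4b, Nlrp9a and Nlrp9c also went together. The correlations were 0.79 for Nlrp4b with Nlrp9a, 0.707 for Nlrp9a with Nlrp9c and 0.696 for Nlrp4b with Nlrp9c. With the wild-type sets centred apart they were 0.737, 0.636 and 0.593. These pairs did not stand clear of others, since Nlrp4b stood at 0.613 with Nlrp14 (0.46 centred apart) and at 0.476 with Nlrp4e (0.656 centred apart). Nlrp4c went with none of Nlrp4b, Nlrp9a and Nlrp9c in the same way (0.112 to 0.138). Its correlation with Nlrp4e, the closest relative in sequence, was -0.108. Over all 28 pairs the median was 0.405, from -0.29 to 0.87, and 24 were above 0. The 2 values of a pair come from the same library, and the members' levels themselves correlated with the library total at between -0.66 (Nlrp4a) and 0.136 (Nlrp4c), so depth is a shared element. In the 10 MII oocytes, Nlrp4b with Nlrp9a stood at 0.642 and Nlrp14 with Nlrp9b at 0.358, with a median of 0.162 over the pairs.

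**Figure D3:**
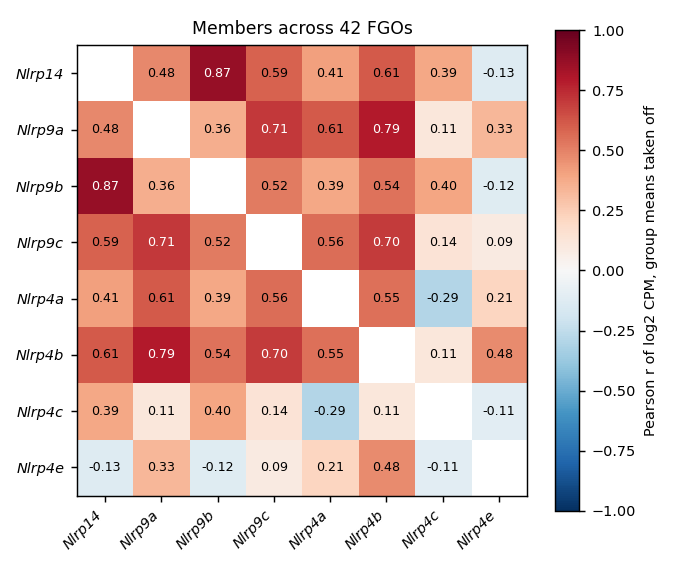
Pearson correlation of log2 CPM deviations from the group mean for the 28 pairs of the 8 genes, as a heat map (colour scale from -1 to 1), with each gene on both axes. The highest cell is Nlrp14 with Nlrp9b at 0.87 and the lowest Nlrp4a with Nlrp4c at -0.29. The pairs among Nlrp4b, Nlrp9a and Nlrp9c lie between 0.696 and 0.79.

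Among 7998 genes compared, those whose deviations over the 42 FGOs were most like Nlrp14 were Zp3 (0.895) and Zp2 (0.89), which encode proteins of the zona pellucida, and Ube2d3 (0.886), a ubiquitin-conjugating enzyme. The same 3 genes led for Nlrp9b, with Zp2 at 0.826, Zp3 at 0.817 and Ube2d3 at 0.811. Nlrp4b was most like Cd164 (0.846), Bmp15 (0.815) and Fbxl5 (0.804). Nlrp9a was most like Skp1a (0.806), Bmp15 (0.805) and Cd164 (0.797), so Bmp15, an oocyte-secreted growth factor, and Cd164, a sialomucin, stood in both lists. Nlrp9c was led by E330017A01Rik (0.784), Nlrp4a by Gm13084 (0.767), Nlrp4c by Gm7162 (0.919) and Nlrp4e by Ms4a1 (0.699). These are orders of likeness in libraries that share their depth, given without a test.

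The wild-type FGOs themselves differed between both sets of replicates, and this has to stand beside every comparison with a mutant. In replicates 9 to 18, Nlrp4b ran from 495 over 529 to 562 CPM, and in replicates 1 to 8 from 534 over 651 to 727 CPM. Of replicates 9 to 18, 6 lay below all of replicates 1 to 8. Nlrp4b was lower in 9 to 18 by -0.31 ± 0.05 on the log2 scale (edgeR adjusted p = 0.000261). Nlrp14 (-0.30, adjusted p = 0.0160), Nlrp9c (-0.29, 0.0222), Nlrp9a (-0.22, 0.0235) and Nlrp9b (-0.19, 0.0399) were also lower, so 5 of the 8 members were called, against 25.4% of the 14664 genes tested and 14.2% called lower. All 10 oocytes of replicates 9 to 18 lay below the median of replicates 1 to 8 for each of these 5 genes. The call for Nlrp9b was lost in 14 of 18 fits that left out 1 library, that for Nlrp9a without replicate 1 (-0.17, adjusted p = 0.0746), 3 (0.0520) or 7 (0.0544), and that for Nlrp9c without replicate 1 (-0.23, 0.0629). Whether animals, days or library preparation set the replicates apart cannot be told apart.

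Nlrp14 was lower in Dnmt3L ADD/ADD FGOs than in wild-type FGOs when all libraries were used. The 8 mutant oocytes had a lowest level of 1584, a median of 1790 and a highest of 2155 CPM, against 1596, 2133 and 3044 CPM in the 18 wild-type FGOs. The groups overlapped, with 7 of 8 mutant oocytes below the wild-type median and 1 below all wild-type oocytes. The log2 difference was -0.30 ± 0.08 (SE), a 1.23-fold lower level (edgeR adjusted p = 0.0182), and Nlrp14 was the only member called, 1 of 8 against 6.13% of 15726 genes (3.06% called lower). All 8 Dnmt3L libraries are of the upper class, and against wild-type replicates 9 to 18 of that class the difference was -0.16 with an adjusted p of 0.0826, where 6.85% of genes were called. With all FGO libraries of the upper class in the fit it was -0.16 with an adjusted p of 0.0448 (7.84% of genes called). The adjusted p was 0.137 with the class as a covariate (4.27% of genes called) and 0.0536 with no other group in the fit, and the call held in all 26 fits that left out 1 library.

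The remaining members did not pass the test in Dnmt3L ADD/ADD FGOs. Nlrp9b ran from 463 over 554 to 631 CPM (wild type 504, 614 and 814) and differed by -0.18 (adjusted p = 0.0635), and Nlrp9a from 306 over 341 to 424 CPM (wild type 330, 394 and 532) by -0.21 (adjusted p = 0.0669). In both the groups overlapped, though 4 of the 8 mutant oocytes had less Nlrp9a than any wild-type FGO. Both were called when wild-type replicate 8 (Nlrp9b -0.20, adjusted p = 0.0277; Nlrp9a -0.22, 0.0483), wild-type replicate 15 (-0.19, 0.0492 and -0.22, 0.0418) or Dnmt3L replicate 1 (-0.22, 0.0361 and -0.26, 0.0284) was left out. Nlrp4e ran from 29.2 over 165 to 227 CPM, with 7 of 8 mutant oocytes above the wild-type median and 3 above all wild-type oocytes, and its difference of 0.37 had an adjusted p of 0.417. Nlrp9c, Nlrp4a, Nlrp4b and Nlrp4c differed by between -0.18 and -0.048, with adjusted p from 0.329 to 0.583.

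In Dnmt3a ADD/ADD FGOs, Nlrp14, Nlrp9b and Nlrp9a were lower than in wild-type FGOs, 3 of 8 members against 15.7% of the 15726 genes tested and 7.61% called lower. The Nlrp14 level ran from 1510 over 1724 to 1961 CPM, so all 8 mutant oocytes lay below the wild-type median of 2133 CPM, 1 of them below every wild-type oocyte. The difference was -0.38 ± 0.08, a 1.304-fold lower level (edgeR adjusted p = 0.000908). Nlrp9b ran from 466 over 516 to 567 CPM against a wild-type median of 614 CPM. Again all 8 lay below that median and 2 below all wild-type FGOs (-0.30 ± 0.06, adjusted p = 0.000969). Nlrp9a ran from 289 over 356 to 385 CPM, all 8 below the wild-type median of 394 CPM (-0.22 ± 0.07, adjusted p = 0.0304).

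Nlrp14 and Nlrp9b were called lower in Dnmt3a ADD/ADD FGOs under each of the 13 other settings tried, including within a class of libraries. Among libraries with under 80% of reads mapped the differences were -0.53 for Nlrp14 (edgeR adjusted p = 0.0322) and -0.42 for Nlrp9b (0.0319), where 6.44% of genes were called. Among those with at least 80% they were -0.25 (0.00767) and -0.20 (0.0258), where 8.59% were called. Nlrp9a was called in the lower class (-0.38, adjusted p = 0.0449) and not in the upper (-0.09, 0.503). Of the 13 other settings, 10 called it, the other 2 losses being against wild-type replicates 9 to 18 (-0.11, 0.252, where 14.6% of genes were called) and without the filter on low counts (-0.22, 0.0501), and its call was also lost without Dnmt3a replicate 8 (-0.19, 0.0741).

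With all libraries, no Nlrp4 member passed the test in Dnmt3a ADD/ADD FGOs. Nlrp4a ran from 696 over 769 to 866 CPM, 5 oocytes above and 3 below the wild-type median, and differed by 0.015 (adjusted p = 0.842). Nlrp4b (-0.09, 0.385) and the Nlrp9 member Nlrp9c (-0.06, 0.673) did not pass either. Nlrp4b was called in 2 of 13 other settings, against wild-type replicates 1 to 8 (-0.26, adjusted p = 0.00800, where 28.8% of genes were called) and with a replicate block (-0.25, 0.0179). Nlrp4c turned on 1 oocyte. Replicate 4 had 73.1 CPM and the other 7 from 24.5 to 40.3 CPM, so the difference was -0.37 (adjusted p = 0.139) with that library and -0.60 (0.0122) without it. Nlrp4e was at 0.21 with an adjusted p of 0.633.

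The double mutant FGOs lay on the other side for Nlrp14. Its level ran from 2418 over 2639 to 3190 CPM, so that all 8 oocytes were above the wild-type median and 1 above all wild-type oocytes. The difference from all wild-type FGOs was 0.23 ± 0.08, a 1.176-fold higher level (edgeR adjusted p = 0.0406), and Nlrp14 was 1 of 8 members called, against 12.2% of genes (5.51% called higher). This call rested on the wild-type libraries used. All double mutant libraries are of the lower class. Against wild-type replicates 1 to 8 of the same class (1596, 2523 and 3044 CPM) the difference was 0.09 (adjusted p = 0.797), where 1.43% of genes were called. Within all FGO libraries of that class it was 0.07 (0.890), where 1.04% were called. Against replicates 9 to 18 it was 0.38 (adjusted p = 2.63e-06), where 37.8% of genes were called. With 1 library left out at a time, the call held in 11 of 26 fits, with adjusted p from 0.0113 to 0.121. It was lost without wild-type replicate 8 or any 1 of replicates 9 to 18, and without double mutant replicate 3, 4, 7 or 8, most of all without replicate 4 (0.19, adjusted p = 0.121).

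The other 7 members did not pass the test in the double mutant. Nlrp9b ran from 540 over 626 to 711 CPM and differed by -0.02, with a 95% interval from -0.14 to 0.10 (adjusted p = 0.880). Nlrp9a differed by -0.01 (0.909) and Nlrp4a, whose 8 oocytes were all above the wild-type median (775 to 857 CPM), by 0.10 (0.176). Nlrp4b was at 0.10 (0.357) and Nlrp9c at 0.11 (0.413). Against wild-type replicates 9 to 18 alone, the setting with 37.8% of genes called, Nlrp4a (0.14, edgeR adjusted p = 0.0355), Nlrp4b (0.25, 0.00128) and Nlrp9c (0.24, 0.0168) were called higher as well. Nlrp4c ran from 35.0 over 60.6 to 71.1 CPM at 0.28, an estimate above that of Nlrp14 but with a wider error (adjusted p = 0.273), and Nlrp4e was at -0.19 with replicate 4 in the fit.

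**Figure D4:**
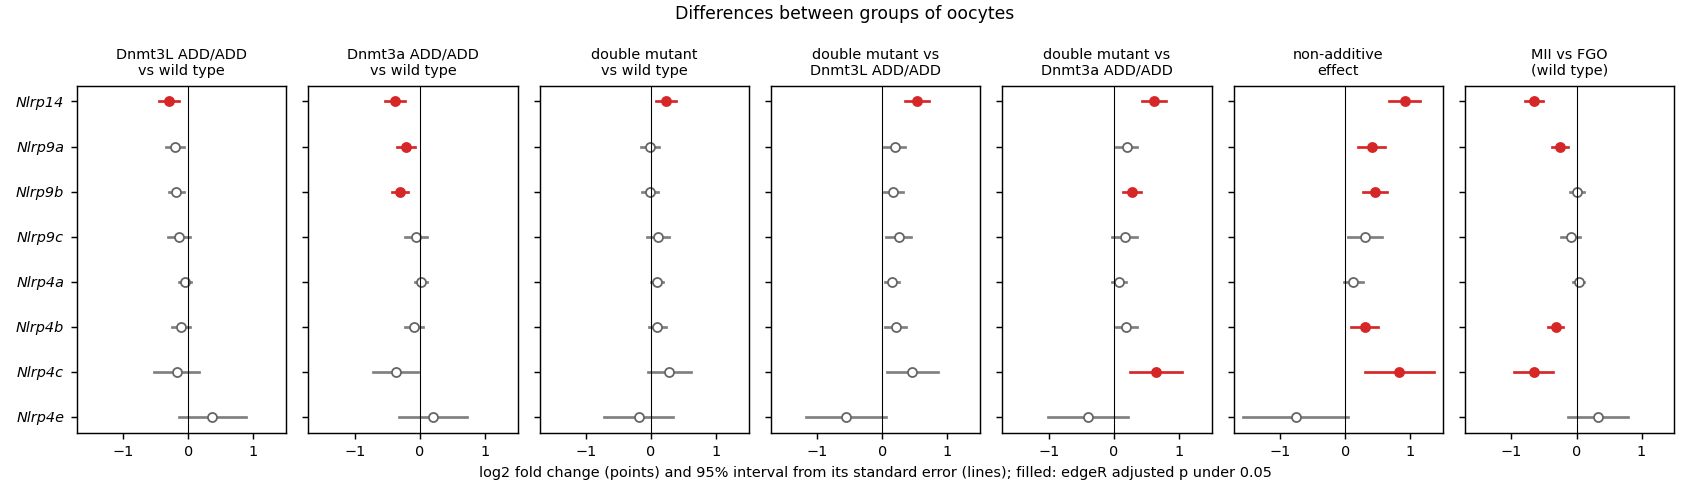
Log2 fold change of each of the 8 genes (horizontal axis) with its 95% interval in 7 comparisons, 1 panel each, with a line at 0; filled red points have an edgeR adjusted p under 0.05. Nlrp14 is at -0.30 and -0.38 in the single mutants, at 0.23 in the double mutant and at -0.65 in MII oocytes.

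Set against the single mutants, the double mutant FGOs had more Nlrp14 in every oocyte. The lowest double mutant level was 2418 CPM, above the highest Dnmt3L ADD/ADD (2155 CPM) and Dnmt3a ADD/ADD (1961 CPM) levels, so the groups did not overlap in either comparison (3.45% and 5.67% of genes did not). Nlrp14 was higher by 0.53 ± 0.09 than in Dnmt3L ADD/ADD (1.446-fold, edgeR adjusted p = 0.000192) and by 0.62 ± 0.09 than in Dnmt3a ADD/ADD (1.533-fold, adjusted p = 1.42e-05). Against Dnmt3L ADD/ADD it was the only member called, 1 of 8 beside 24.2% of genes (12.8% higher), and the other 7 had adjusted p from 0.0574 to 0.190. Without Dnmt3L replicate 1, 7 of the 8 were called higher, from 0.17 for Nlrp4a (0.0283) to 0.58 for Nlrp4c (0.0378), where 24.8% of genes were called and 13.6% called higher. Without Dnmt3L replicate 5, Nlrp4a, Nlrp4b and Nlrp9c were called with Nlrp14, and leaving out Dnmt3L replicate 2 or double mutant replicate 2, 3, 4, 5 or 6 added 1 or 2 calls, while 16.4% to 27.6% of genes were called over the 16 fits that left out 1 library. Those 2 groups share no class of library, and with the class as a covariate, estimated from the other groups, the difference was 0.33 with an adjusted p of 0.110, where 1.18% of genes were called.

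Against Dnmt3a ADD/ADD, Nlrp9b and Nlrp4c were higher too, 3 of 8 members beside 30.9% of genes and 16% called higher. Nlrp9b (540, 626 and 711 CPM against 466, 516 and 567) was higher by 0.28 ± 0.07 (edgeR adjusted p = 0.00345), with 7 of 8 double mutant oocytes above all Dnmt3a ADD/ADD oocytes. Nlrp4c was higher by 0.65 ± 0.20 (adjusted p = 0.0133), all 8 oocytes above the Dnmt3a ADD/ADD median of 32.8 CPM. Among libraries of the lower class, where 8 double mutant and 3 Dnmt3a ADD/ADD FGOs can be compared, Nlrp14 (0.60, adjusted p = 0.0161) and Nlrp4c (0.97, 0.0401) were called and Nlrp9b (0.29, 0.0883) was not, where 11% of genes were called. With the class as a covariate only Nlrp14 was called (0.49, 0.000963), with 12.9% of genes. Without double mutant replicate 4, Nlrp9a (0.24, 0.0292) and Nlrp4b (0.24, 0.0266) were called as well, and Nlrp9a was also called without Dnmt3a replicate 5 or 7 or double mutant replicate 2 or 5 (adjusted p from 0.0399 to 0.0486).

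The 3 mutant comparisons share their wild-type libraries, so their values are set side by side rather than correlated. The test of the difference itself asks whether the double mutant departs from the sum of both single differences on the log2 scale. It did for 5 of the 8 members, all upwards, where 35.6% of genes departed and 19.3% upwards. The departures were 0.92 ± 0.12 for Nlrp14 (edgeR adjusted p = 5.49e-07), 0.46 ± 0.10 for Nlrp9b (0.000261), 0.41 ± 0.11 for Nlrp9a (0.00321), 0.83 ± 0.27 for Nlrp4c (0.0136) and 0.30 ± 0.11 for Nlrp4b (0.0270). All 5 calls held in each of 42 fits that left out 1 library. With the class of mapped reads as a covariate, Nlrp14 (0.69, adjusted p = 0.000494) and Nlrp9b (0.33, 0.0347) were called and the other 3 were not, with 14.2% of genes called. Nlrp9c (0.31, 0.0631; called in 12 of the 42 fits), Nlrp4a (0.13) and Nlrp4e (-0.76, 0.145) did not pass. Over the 10 other settings, which called 13.5% to 45% of genes, Nlrp14 and Nlrp9b were called in all 10. Nlrp9a and Nlrp4c were called in 9, Nlrp4b in 8, Nlrp9c in 4 and Nlrp4a in 1. The median over the 8 members was 0.36, and 0.04 over all genes.

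**Figure D5:**
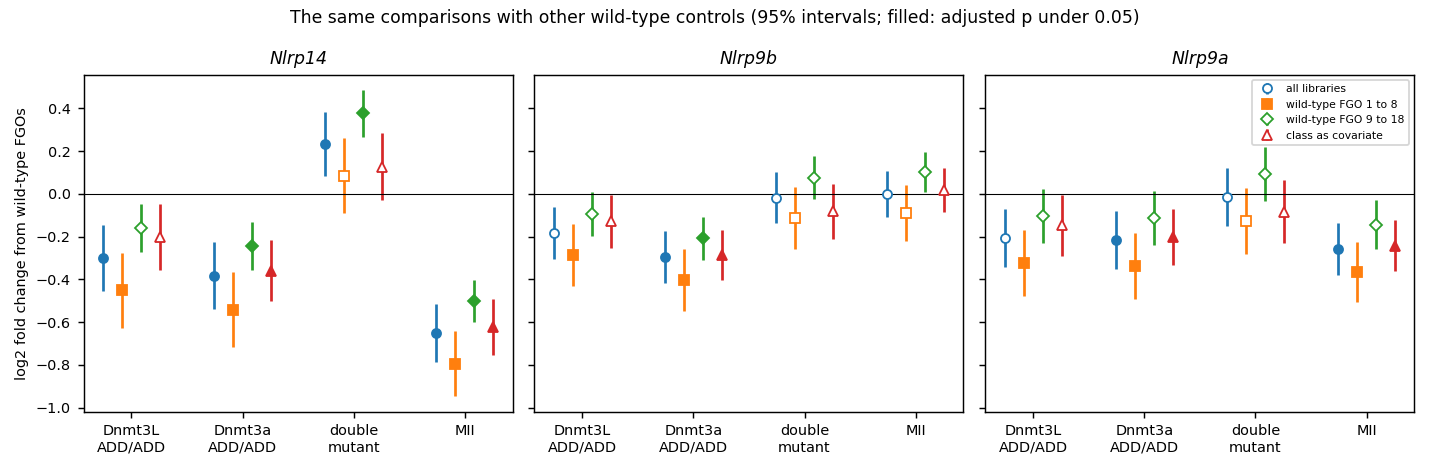
Log2 fold change from wild-type FGOs of Nlrp14, Nlrp9b and Nlrp9a in the 3 mutants and MII oocytes (vertical axis, with 95% intervals) under 4 choices of controls: all wild-type libraries, replicates 1 to 8, replicates 9 to 18, and all with the class of mapped reads as a covariate. For Nlrp14 the double mutant moves from 0.09 against replicates 1 to 8 to 0.38 against replicates 9 to 18, while Dnmt3a ADD/ADD and MII oocytes stay below 0 under each choice.

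Nlrp14 was lower in every MII oocyte than in any wild-type FGO. The 10 MII oocytes ran from 1303 over 1459 to 1579 CPM against a lowest FGO level of 1596 CPM, and groups did not overlap for 2.35% of genes. The level was lower by -0.65 ± 0.07, or 1.571-fold (edgeR adjusted p = 5.85e-11), and Nlrp14 fell from the 13th to the 48th place per kilobase, there among 28104 genes with a count. Nlrp4b ran from 404 over 480 to 529 CPM against 495, 547 and 727 CPM in FGOs, with 9 of 10 MII oocytes below all FGOs (-0.32 ± 0.06, 1.25-fold, adjusted p = 4.65e-05). Nlrp4c ran from 25.6 to 35.0 CPM, all 10 below the FGO median of 46.7 CPM (-0.66 ± 0.15, adjusted p = 0.000556). Nlrp9a ran from 299 over 342 to 387 CPM, all 10 below the FGO median and 4 below all FGOs (-0.26 ± 0.06, adjusted p = 0.000753).

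These 4 members were called lower of 8, where 39.1% of 15784 genes were called and 22.6% called lower. Nlrp14, Nlrp4b and Nlrp4c were called under all 13 other settings and in all 28 fits that left out 1 library. Nlrp9a was not called against wild-type replicates 9 to 18 (adjusted p = 0.0591, 27.9% of genes called) or within the upper class of libraries (-0.15, 0.0891, 22.7%).

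The other 4 members did not pass the test between MII oocytes and wild-type FGOs. Nlrp9b, whose level went with that of Nlrp14 among FGOs, ran from 561 over 632 to 704 CPM in MII and from 504 over 614 to 814 CPM in FGOs. It differed by 0.00, with a 95% interval from -0.11 to 0.11 (adjusted p = 0.992). Zp3 and Zp2, the genes most like both of them among FGOs, were lower in MII by -1.96 and -1.47. Nlrp4a differed by 0.03 (interval -0.05 to 0.11), Nlrp9c by -0.09 (-0.23 to 0.06) and Nlrp4e by 0.33 (-0.13 to 0.79). Of these, Nlrp9c was called in 2 of the 13 other settings, which called 17.3% to 48% of genes. Its estimates over those settings ran from -0.22 to 0.06. The interval of Nlrp4e is wide enough to hold a sizeable rise, and 3 of 10 MII oocytes had more Nlrp4e than any FGO. The 8 genes together took 0.404% ± 0.0180 of all MII counts, and the part of Nlrp14 in their counts was 34.7%. In FGOs that part was 47.0% in the double mutant, 39.3% for Dnmt3a ADD/ADD and 40.7% for Dnmt3L ADD/ADD.

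With all libraries, no member differed by 2-fold in any comparison, and the largest estimate was the 1.886-fold departure of Nlrp14 from the sum. That departure passed 2-fold with library totals alone (2.019-fold), with a replicate block (2.083-fold) and against wild-type replicates 1 to 8 (2.111-fold), as did that of Nlrp4c without Dnmt3a replicate 4 (2.094-fold). A called change over 2-fold is a size that 0.655% of genes reached in Dnmt3L ADD/ADD FGOs, 2.05% for Dnmt3a ADD/ADD, 1.65% for the double mutant against wild type, 5.86% and 4.03% for the double mutant against the Dnmt3a and the Dnmt3L mutant, 10.3% for the departure from the sum, 9.2% for MII and 3.72% between the wild-type sets. The median log2 difference of the 8 members was -0.16 in Dnmt3L ADD/ADD FGOs, -0.15 for Dnmt3a ADD/ADD, 0.10 for the double mutant and -0.17 for MII, where all genes tested had medians between -0.05 and -0.01.

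Of 22 other genes of the NOD-like receptor family, 10 had enough counts to be tested. The abundant ones in wild-type FGOs were Nlrp4f at 1362, Nlrp5 at 1195, Nlrp2 at 406 and Nlrp4g at 387 CPM, while Nlrp3, the inflammasome sensor of myeloid cells, was at 0.775 CPM and Nlrp1a at 0. The sensor Nod2 (58.8 CPM) and the inflammasome genes Nlrc4 (24.8) and Naip1 (23.8 CPM) were detected at low levels. Nlrp5 was the only relative called in the single mutants, lower in Dnmt3L ADD/ADD by -0.25 (edgeR adjusted p = 0.0497) and in Dnmt3a ADD/ADD by -0.30 (0.00657). In the double mutant Nlrp5 differed from wild type by 0.09 (0.463). The departure from the sum of both single differences was 0.64 for Nlrp5 (9.75e-05) and 0.24 for Nlrp2 (0.0178). In MII, Nlrp2 (-1.02, 1.66e-19), Nlrp5 (-0.30, 0.000477) and the scarce Nlrp12 (-1.01, 0.0194) and Nlrp10 (-3.35, 0.000242) were lower, while Nlrp4f, the Nlrp4 copy of the subcortical maternal complex, was higher by 0.15 (0.00714). Nlrp10 stood at 2.32 CPM in wild-type replicates 1 to 8, at 0.365 in 9 to 18 and at 0.113 in MII. The size of its fall therefore depended on the wild-type libraries used.

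Several partners an inflammasome needs were scarce in these oocytes. Of 9 genes listed, Pycard, which encodes the adaptor ASC, stood at 0.461 CPM in wild-type FGOs, Casp1 at 0.361, the pore-forming Gsdmd at 0.207 and Il1b at 0. The 3 with enough counts in the FGO fit were Txnip (843 CPM), Nek7 (30.2 CPM) and Casp8 (28.8 CPM). Nek7, a kinase that also acts in mitosis, was called higher in the double mutant (0.24, edgeR adjusted p = 0.0160), the Dnmt3a mutant (0.27, 0.00378) and the Dnmt3L mutant (0.24, 0.0267), comparisons that share the wild-type libraries. In MII it was higher by 0.16 (0.0366) and Txnip lower by -0.21 (0.0117).

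All 8 genes of the subcortical maternal complex, of which Nlrp5, Nlrp2 and Nlrp4f are relatives of the members, were tested. Against wild type, 1 was called higher in the double mutant, 3 lower in Dnmt3a ADD/ADD and 2 lower in Dnmt3L ADD/ADD FGOs. Of all genes, 5.51%, 7.61% and 3.06% were called in those directions. Against Dnmt3L ADD/ADD and Dnmt3a ADD/ADD, 5 and 6 were called higher in the double mutant, beside 12.8% and 16% of all genes. From the sum, 7 of 8 departed upwards, beside 19.3% of all genes. In MII 5 were lower and 2 (Nlrp4f and Zbed3) higher, where 39.1% of all genes were called and 22.6% called lower. The 9 oocyte markers moved with these counts in the mutant comparisons. In MII, 4 of the 9 were called lower and 0 higher, with a median log2 difference of -0.09. Among FGOs, 3 of the 9 were called higher in the double mutant, 6 lower in Dnmt3a ADD/ADD and 5 lower in Dnmt3L ADD/ADD. All 9 departed upwards from the sum. All 9 were called higher in the double mutant against Dnmt3L ADD/ADD (median 0.44) and against Dnmt3a ADD/ADD (median 0.55), beside 0.53 and 0.62 for Nlrp14. In wild-type replicates 9 to 18 against 1 to 8, 2 of the 8 complex genes and 3 of the 9 markers were called lower, beside 14.2% of all genes. The double mutant and Dnmt3L ADD/ADD libraries share no class of mapped reads. The part of the markers in the values of Nlrp14 and Nlrp9b was not tested. The mutated genes Dnmt3a and Dnmt3l had adjusted p from 0.153 to 0.693 in the 3 mutants against wild type. Dnmt3a stood at 299 ± 30.9 CPM in wild-type FGOs, 308 ± 24.1 in the double mutant, 322 ± 16.4 for Dnmt3a ADD/ADD and 325 ± 19.6 CPM for Dnmt3L ADD/ADD. A substitution leaves the transcript in place, so these counts do not check the labels.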

How the data were processed

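Single-oocyte SMART-Seq HT libraries were sequenced by the study and aligned to mm10. The submitters' processing notes name STAR and HTSeq, and the deposited tables of raw counts per gene have the layout that featureCounts writes. The treatment of reads with several matches, the strand setting and the annotation release are not given in the sources used here. Of 47523 symbols shared with GENCODE M21, 92.4% had the same start, end and length there, all 8 members included. The members and gene lists were chosen with earlier results of these data known.

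From the deposited counts of 52 libraries, a table of 51734 genes was joined. Levels are CPM on totals scaled by trimmed means of M-values. Tests used edgeR 4.0.16 in R 4.3.3 (quasi-likelihood, minimum count of 10, Benjamini-Hochberg over all genes tested, called at an adjusted p under 0.05). FGO comparisons were fitted on the 42 FGOs and MII on all 52 libraries, without covariates. The named genes were the 8 members, the fixed lists, and for each member the 3 genes with the highest correlation among those of at least 10 CPM in every group. Alternatives were other scalings, filters and sets of libraries, a replicate block, DESeq2 1.42.0 and leaving out each library. No 2 libraries of the same group agreed within sampling noise (lowest chi-square per degree of freedom 5.388). Pairs across groups were not compared. The script was tested on simulated data. DNA methylation and embryo samples were not analysed here. RefSeq promoters (7 of 8 members) and GENCODE transcripts were read from GRCm38 tables.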

Additional observations from a re-analysis of the deposited data

Results flagged for a closer look

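In 32 groups of gene and genotype with 4 to 10 oocytes, 3 held an oocyte set apart from its group by a gap wider than Dixon's limit, where chance gives about 1 in 20 such groups. Double mutant replicate 4 had 503 CPM of Nlrp4b, and the next oocyte had 606. Dnmt3a ADD/ADD replicate 4 had 73.1 CPM of Nlrp4c, and the next had 40.3. Double mutant replicate 6 had 35.0 CPM of Nlrp4c, and the next had 54.7.

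The effect of the Dnmt3L substitution differed between Dnmt3a backgrounds for 5 members, by edgeR's test of the departure from the sum of both single differences. The departure on the log2 scale was 0.92 for Nlrp14 (adjusted p = 5.49e-07), 0.83 for Nlrp4c (0.0136), 0.46 for Nlrp9b (0.000261), 0.41 for Nlrp9a (0.00321) and 0.30 for Nlrp4b (0.0270). Here 35.6% of all genes departed. The class of mapped reads differs between these groups, and with it as a covariate Nlrp14 and Nlrp9b were called and the other 3 were not.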

How the results depend on the processing

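Of 680 values of a member in a comparison under another setting, 582 kept their direction and call, 25 lost the call, 39 gained one and 34, none of them called, changed sign. With 1 library left out, 1488 of 1584 kept both. Shares in parentheses are of all genes called in the same fit. The count of members called for the Dnmt3L mutant (1) was 2 with library totals alone (6.45%), 3 at a minimum count of 50 (9.09%), 2 with DESeq2 (3.13%), 0 with only the groups compared (4.3%), 0 with the class covariate (4.27%), 5 against wild-type replicates 1 to 8 (22%) and 0 against 9 to 18 (6.85%), and 1 to 3 with a library left out (3.67% to 7.06%). In the double mutant against wild type (1) it was 0 with library totals (12%), without the filter (2.89%), with only the groups compared (7.27%), with the class covariate (2.61%), against replicates 1 to 8 (1.43%) and within the lower class (1.04%), 4 against replicates 9 to 18 (37.8%), and 0 to 1 with a library left out (7.42% to 18.9%). Against Dnmt3L ADD/ADD (1) it was 5 with totals (24.7%), 2 at a minimum of 50 (33.4%), 3 with only the groups compared (31.5%), 0 with the covariate (1.18%) and 1 to 7 with a library left out (16.4% to 27.6%). Against Dnmt3a ADD/ADD (3) it was 6 with totals (31.1%), 5 with only the groups compared (35.7%), 1 with the covariate (12.9%) and 3 to 5 with a library left out (24.2% to 33%). The departure from the sum gave 5 calls with all libraries and no covariate (35.6%) and 2 with the covariate (14.2%). Other settings also changed the calls of single members, as given above. With a library left out, the wild-type sets gave 2 to 5 (19.2% to 31.6%). With a change over 2-fold required as the only altered choice, each of these counts was 0, as it was for Dnmt3a ADD/ADD against wild type and for MII. Together with other settings, the departure of Nlrp14 passed 2-fold in 3 and that of Nlrp4c in 1, as given above. The causes were not tested.

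Replicate numbers did not pair the samples: 15 of 82 same-numbered pairs correlated over 0.1 (median -0.0155). A replicate block gave 5 calls in Dnmt3L ADD/ADD (18% of all genes called), 0 in the double mutant (1.44%) and 2 against Dnmt3L ADD/ADD (22.3%). Under the block, Nlrp4a was -0.026 in the Dnmt3a mutant, Nlrp4b was -0.065 and Nlrp9c was -0.034 in the double mutant, Nlrp4a was -0.0071 and Nlrp9b was -0.062 in MII.

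Signs of uncalled log2 differences turned under other settings. Against wild-type replicates 9 to 18, Nlrp4b was 0.040 in the Dnmt3L mutant, Nlrp4b was 0.056 and Nlrp9c was 0.074 in the Dnmt3a mutant, Nlrp9a was 0.092 and Nlrp9b was 0.076 in the double mutant, Nlrp9c was 0.058 in MII. Within the upper class of libraries, Nlrp4b was 0.036 in the Dnmt3L mutant, Nlrp4b was 0.073 and Nlrp9c was 0.047 in the Dnmt3a mutant, Nlrp9c was 0.037 in MII. With library totals alone, Nlrp4a was -0.023 in the Dnmt3a mutant, Nlrp9a was 0.0027 and Nlrp9b was 0.0018 in the double mutant, Nlrp4a was -0.037 and Nlrp9b was -0.073 in MII, Nlrp4e was -0.0085 in the wild-type sets. Against replicates 1 to 8, Nlrp4a was -0.032 in the Dnmt3a mutant, Nlrp4b was -0.062 and Nlrp9c was -0.037 in the double mutant, Nlrp4a was -0.00080 and Nlrp9b was -0.089 in MII. Within the lower class, Nlrp4e was -0.016 in the Dnmt3a mutant, Nlrp4b was -0.077 and Nlrp9c was -0.052 in the double mutant, Nlrp9b was -0.045 in MII. With the class as a covariate, Nlrp4b was -0.0068 and Nlrp9c was -0.0049 in the double mutant. At a minimum count of 50, Nlrp9b was -0.016 in MII. With only the groups compared in the fit, Nlrp9b was -0.00035 in MII. With a library left out, Nlrp4a in the Dnmt3a mutant ran from -0.019 to 0.022, Nlrp4e in the wild-type sets ran from -0.076 to 0.15, Nlrp9a in the double mutant ran from -0.034 to 0.015, Nlrp9b in the double mutant ran from -0.046 to 0.011, Nlrp9b in MII ran from -0.018 to 0.026.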

Other observations

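Of 6 transcription factor genes that act in the oocyte, 5 had enough counts to be tested. Figla, which encodes a basic helix-loop-helix factor needed for zona pellucida genes, was at 25.0 ± 6.27 CPM in wild-type FGOs, 32.7 ± 6.16 in the double mutant, 20.6 ± 1.74 for Dnmt3a ADD/ADD and 22.0 ± 3.12 CPM for Dnmt3L ADD/ADD. It was higher in the double mutant than in wild type by 0.38 (edgeR adjusted p = 0.0221), and the single mutant differences did not pass (0.321 and 0.0869). Taf4b, a TFIID subunit of the ovary, was higher in the double mutant by 0.53 (0.0160), with no call in the single mutants (0.473 and 0.634). In MII, Figla (-0.54, 4.61e-05) and Taf4b (-0.37, 0.0239) were lower. Both also differed between wild-type replicates 9 to 18 and 1 to 8 (Figla -0.49, 0.00420, and Taf4b -0.60, 0.0117). In replicates 1 to 8, the class of the double mutant, Figla stood at 29.6 ± 6.76 CPM, and in 9 to 18 at 21.3 ± 2.09. Taf4b stood at 71.3 ± 26.5 and 47.5 ± 6.24 CPM, beside 84.4 ± 14.7 in the double mutant. These 2 of the 5 genes tested were called higher in the double mutant, beside 5.51% of all genes. Lhx8, a homeobox gene, was called higher in both single mutants (0.14, 0.0272 and 0.11, 0.0445) and in MII (0.10, 0.0212). Nobox, another homeobox gene of the oocyte, was called in none of these comparisons with wild-type FGOs and Sohlh2 likewise, while Sohlh1 had too few counts.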
